A study of Mus musculus with 15 samples.

Results

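SMAD2/3 signaling was taken away from mouse endometrial organoids in 2 ways, by deletion of the genes and by a receptor inhibitor, and these 2 treatments were set directly against each other. The comparison took the 4 *Smad2/3* cKO samples and the 4 control + A83-01 samples, 8 of the 15 samples of the series, and tested the 12980 of 16729 genes with a mean normalized count of at least 10 over those 8 samples. No gene met the threshold for a difference, and the lowest adjusted p in limma was 0.162. The genes nearest to it, among them *Ncald*, *Wfdc18*, *Adh1*, *Otop1* and *Slc13a2*, were higher in all 4 *Smad2/3* cKO samples than in any control + A83-01 sample. They were ranked on these same samples, and the groups did not overlap for 3.45% of all genes tested.

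The organoids were grown in Matrigel from epithelium separated from the mouse uterus. Mice of both groups carried homozygous floxed alleles of *Smad2* and *Smad3*. *Smad2/3* cKO mice also carried Cre recombinase expressed from the *Ltf* gene, and their organoids received the DMSO vehicle. By the study's methods, mice were treated with estradiol around weaning to induce this Cre, and the methods do not say whether controls were included. Control + A83-01 organoids had no Cre and were grown with A83-01 at 500 nM. The study's methods give adult females of 6 to 8 weeks, of mixed 129S5/SvEvBrd and C57BL/6J descent, wherever no other age is stated. The deletion occurs only in cells that express *Ltf* or have expressed it, whereas the inhibitor reached all cells and was present in culture only, and these differences between the treatments cannot be told apart from the difference in how SMAD2/3 was removed. The culture medium of both groups held WNT3a, R-spondin and Noggin, a secreted antagonist of BMP ligands. The 3 control + vehicle samples and the 4 *Smad2/3* cKO + A83-01 samples did not enter the fit and are used below only to show where their levels lay.

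SMAD2 and SMAD3 are transcription factors that are phosphorylated by the type 1 receptors ALK4, ALK5 and ALK7 when TGFβ, activin or a related ligand binds, and then enter the nucleus with SMAD4. A83-01 blocks the kinase of these receptors, so it stops phosphorylation of SMAD2/3 but also any other signal from the same kinases, while deletion removes the SMAD proteins and leaves the receptors active. BMP ligands act through other type 1 receptors and through SMAD1 and SMAD5, whose best known targets are the *Id* genes.

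The total of the normalized counts was 21572700 to 24423100 in the control + A83-01 samples and 22171500 to 22779500 in the *Smad2/3* cKO samples. All 14 epithelial markers had a mean of at least 10, and their sum was 199292 to 318888 in control + A83-01 and 170036 to 276887 in *Smad2/3* cKO, against 4.79 to 58.2 and 23.5 to 44.9 for the stromal list. *Smad2/3* cKO replicate 2 alone held macrophage transcripts: *C1qa* was at 155, *C1qb* at 306, *C1qc* at 192 and *Tyrobp* at 128, and all of them were at 0 in the other 7 samples. *Lyz2* was at 3372 in that sample and at 86.9 or less in the others, and the summed leukocyte list, 11 of whose 13 markers were in the file, was 118 to 301 in control + A83-01 and 240 to 5128 in *Smad2/3* cKO. The part of these transcripts in the results was not tested. Control + A83-01 replicates 1 and 2 stood apart in interferon-stimulated genes and in *Cep85* and *Rps3a1*, and *Smad2/3* cKO replicate 3 in keratins, as described with those genes. The numbers in the sample labels fell below 390 for replicates 1 and 2 of both groups and above it for replicates 3 and 4, so this series of numbers was balanced between the groups.

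At an adjusted p below 0.01 with a fold change of more than 1.4 in either direction, 0 genes were higher and 0 were lower in *Smad2/3* cKO, a background of 0% (limma), and the count was also 0 at an adjusted p below 0.05. At an unadjusted p below 0.05, a ranking and not a call, 451 genes were higher (3.47% of those tested) and 375 lower (2.89%), 826 in all (6.36%). The 2 groups did not overlap for 448 genes (3.45%), of which 236 were higher and 212 lower in *Smad2/3* cKO. The same count of calls was 0 in each of the 8 fits that left out 1 sample. Without *Smad2/3* cKO replicate 2, the sample with macrophage transcripts, 270 genes were higher and 237 lower at an unadjusted p below 0.05, and without control + A83-01 replicate 2 these numbers were 878 and 665.

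A p that misses the threshold does not show that deletion and inhibitor act alike, and the intervals give the size of difference that the samples leave possible. The 95% interval of the difference lay within 2-fold in either direction for 8003 genes (61.7%), and within 1.4-fold for 2083 genes. From the estimate to either end of the interval, the median distance was 0.56 on the log2 scale. The estimated difference itself was above 2-fold for 894 genes (6.89%), and for 43 genes, 35 higher and 8 lower in *Smad2/3* cKO, the interval lay wholly past 2-fold although none of them met the adjusted threshold. Of the genes tested, 405 had a mean under 10 in 1 of the groups and passed the filter only through the other, among them 61 of the 826 and 20 of the 43. Pairs of samples from different groups correlated in much the same range as pairs from 1 group: Pearson's r over the genes tested, which are not independent replicates, was 0.890 to 0.961 between groups (median 0.932), 0.912 to 0.960 within control + A83-01 (median 0.933) and 0.933 to 0.953 within *Smad2/3* cKO (median 0.944).

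The targeted genes did not separate the groups. *Smad2* had normalized counts of 970, 1062, 984 and 912 in control + A83-01 and of 924, 863, 892 and 821 in *Smad2/3* cKO, a log2 difference of −0.17 (95% interval −0.45 to 0.12, adjusted p = 0.748). *Smad3* was at 669, 1556, 2003 and 1265 in control + A83-01 and at 1170, 1640, 1516 and 1977 in *Smad2/3* cKO, a log2 difference of 0.28 (−0.41 to 0.97, adjusted p = 0.799). The values are sums over each whole gene, so the floxed exons cannot be told from the rest of the transcript and these values do not check the deletion. *Ltf*, which encodes the secreted iron-binding protein lactoferrin and carries the Cre, was at 390831, 306626, 67933 and 77406 in control + A83-01 and at 81420, 208980, 194039 and 55396 in *Smad2/3* cKO. The groups overlapped widely, with a log2 difference of −0.45 (−1.90 to 1.01, adjusted p = 0.847), and *Ltf* took 0.315% to 1.6% of all normalized counts in control + A83-01 and 0.243% to 0.925% in *Smad2/3* cKO.

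The genes of lowest p fell into sets that differed in where the control + vehicle samples lay. They were chosen after their values were seen. In the first set, control + A83-01 lay between control + vehicle and *Smad2/3* cKO. *Ncald*, which encodes the neuronal calcium sensor neurocalcin delta, had normalized counts of 528, 502, 633 and 653 in control + A83-01 and of 1210, 1859, 1700 and 1328 in *Smad2/3* cKO, against 120 to 162 in control + vehicle. Every *Smad2/3* cKO sample was thus above every control + A83-01 sample, with a 2.61-fold difference (95% interval 1.97 to 3.45, adjusted p = 0.162). *Adh1*, an alcohol dehydrogenase that oxidizes retinol among other alcohols, was at 23.3, 22.3, 45.0 and 51.7 in control + A83-01, at 211, 197, 178 and 139 in *Smad2/3* cKO, and at 3.47 or less in control + vehicle. The difference was 5.25-fold (3.02 to 9.14, adjusted p = 0.162), and the groups did not overlap.

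*Slc13a2*, a sodium-coupled carrier of citrate and other dicarboxylates, was at 386, 158, 275 and 300 in control + A83-01 and at 2407, 1075, 1042 and 997 in *Smad2/3* cKO. It was 4.79-fold higher (2.82 to 8.14, adjusted p = 0.162), with replicate 1 the highest of its group, and was at 78.7 to 93.3 in control + vehicle. *Tshr*, the thyrotropin receptor, was at 37.0 to 47.0 in control + vehicle, at 1380, 1305, 1867 and 2451 in control + A83-01 and at 4963, 3836, 2897 and 4931 in *Smad2/3* cKO. On the log2 scale most of its distance from control + vehicle was thus present under the inhibitor, and the remaining difference was 2.40-fold (1.65 to 3.48, adjusted p = 0.380). The reverse order, with the deletion lowest, was seen for *Gstm7*, a glutathione transferase, and *Apobec1*, a cytidine deaminase that edits RNA. *Gstm7* was at 944 to 1504 in control + vehicle, at 515, 381, 279 and 276 in control + A83-01 and at 117, 130, 121 and 83.1 in *Smad2/3* cKO, 3.14-fold lower with deletion than with inhibitor (log2 difference −1.65, −2.25 to −1.05, adjusted p = 0.219). *Apobec1* was at 381 to 849 in control + vehicle, at 301, 314, 209 and 152 in control + A83-01 and at 33.6, 78.4, 77.7 and 75.0 in *Smad2/3* cKO (log2 difference −1.88, −2.70 to −1.07, adjusted p = 0.380).

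In the second set, control + A83-01 overlapped the range of control + vehicle. For *Nlrp6*, *Wfdc18* and *Hey1* its highest sample was above that range. By mean log2 level control + A83-01 also lay between control + vehicle and *Smad2/3* cKO for the genes of this set. *Otop1*, a proton channel, was at 69.9, 57.1, 77.4 and 59.2 in control + A83-01, within or close to the 29.1 to 81.0 of control + vehicle, and at 233, 721, 778 and 271 in *Smad2/3* cKO. The difference was 6.56-fold (3.48 to 12.4, adjusted p = 0.162), and *Smad2/3* cKO replicates 2 and 3 were well above replicates 1 and 4. *Nlrp6*, a cytoplasmic pattern recognition receptor of epithelia, was at 116, 255, 341 and 162 in control + A83-01, at 39.9 to 186 in control + vehicle, and at 568, 2191, 1859 and 858 in *Smad2/3* cKO, with replicates 2 and 3 again the highest. Its difference was 5.87-fold (2.85 to 12.1, adjusted p = 0.356). *Wfdc18*, which encodes a small secreted protein with a protease inhibitor fold, was at 75.9, 50.6, 187 and 42.0 in control + A83-01 and at 1254, 1667, 1487 and 391 in *Smad2/3* cKO, a 14.0-fold difference (5.98 to 32.6, adjusted p = 0.162), against 14.9 to 123 in control + vehicle. *Hey1*, a transcriptional repressor induced by Notch and by BMP, was at 58.9, 91.6, 54.8 and 57.2 in control + A83-01, at 49.6 to 66.4 in control + vehicle and at 152, 215, 218 and 137 in *Smad2/3* cKO, a 2.73-fold difference (1.74 to 4.28, adjusted p = 0.380).

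**Figure D1:**
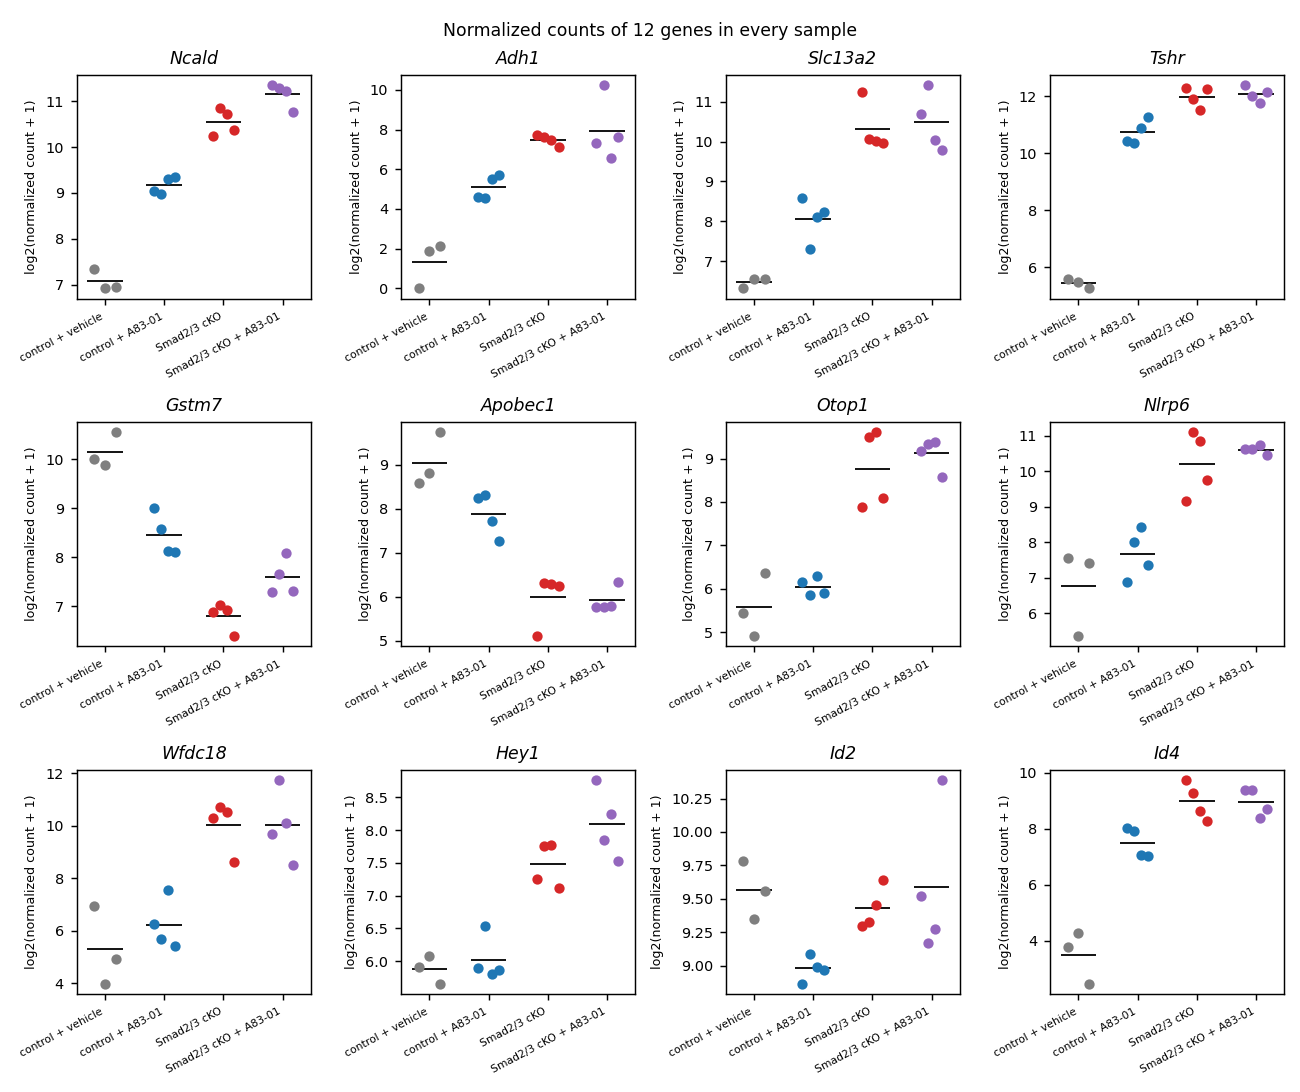
Normalized counts of 12 genes on the log2(count + 1) scale in each of the 15 samples, one point per sample with the group mean as a bar. For *Tshr*, *Ncald*, *Adh1* and *Slc13a2* the 4 control + A83-01 samples lie between control + vehicle and *Smad2/3* cKO. For *Otop1*, *Nlrp6*, *Wfdc18* and *Hey1* they overlap the range of control + vehicle.

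*Rnft2* and *Stxbp6* were also lower in *Smad2/3* cKO without overlap, but there the control + vehicle samples lay nearer to the deletion. *Stxbp6*, which encodes a SNARE-binding protein also called amisyn, was at 177, 482, 261 and 257 in control + A83-01, at 98.6, 87.8, 99.7 and 98.4 in *Smad2/3* cKO and at 103 to 175 in control + vehicle (log2 difference −1.51, −2.19 to −0.83, adjusted p = 0.380). Among the genes without overlap, the largest differences were in genes of low level in 1 group. *Serpina3n*, a secreted serine protease inhibitor, was at 10.1, 0, 118 and 64.5 in control + A83-01 and at 921, 1977, 980 and 484 in *Smad2/3* cKO, a log2 difference of 5.82 (3.01 to 8.62, adjusted p = 0.446). In the other direction *Gfra1*, a co-receptor for glial cell line-derived neurotrophic factor that passed the filter only through control + A83-01, was at 102, 79.5, 106 and 22.2 in control + A83-01 and at 12, 2.57, 8.64 and 9.81 in *Smad2/3* cKO (log2 difference −3.01, −4.44 to −1.58, adjusted p = 0.446).

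The label numbers split each group into 2 samples of each series. The genes given here were chosen on all 8 samples and did not overlap between the groups. Their direction in each series was thus fixed in advance, and only the sizes are described. The log2 difference within the numbers below 390 and within those above was 1.54 and 1.22 for *Ncald*, 3.10 and 1.68 for *Adh1*, 2.68 and 2.75 for *Otop1*, 2.69 and 2.42 for *Nlrp6*, 4.52 and 3.09 for *Wfdc18* and −1.84 and −1.46 for *Gstm7*. *Tshr* differed by 1.70 in the lower series and by 0.82 in the higher.

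The *Smad2/3* cKO + A83-01 samples, which combine deletion and inhibitor and did not enter the fit, lay on the side of the deletion. Of the 826 genes at an unadjusted p below 0.05, the mean log2 level of these samples was nearer to *Smad2/3* cKO than to control + A83-01 for 680 (82.3%), compared with 60.7% of all 12980 genes. It was 82.3% of the 451 genes that were higher and 82.4% of the 375 that were lower in *Smad2/3* cKO. When 1 sample was left out and the genes at an unadjusted p below 0.05 were chosen again where that sample was in the fit, so that the set of genes changed, the share ran from 69.8% to 88.6%. In fits within the label numbers below 390 and within those above it was 85.7% and 69.2% of the genes each fit chose. The level of *Smad2/3* cKO + A83-01 lay between the other groups for 533 of the 826 genes, past *Smad2/3* cKO for 283 and beyond control + A83-01 for 10. Over all 12980 genes these numbers were 5230, 4780 and 2970. All 20 genes of lowest p were nearer to *Smad2/3* cKO. *Smad2/3* cKO replicate 2 and *Smad2/3* cKO + A83-01 replicate 1 carry the same label number, so these groups may share a mouse. Without *Smad2/3* cKO + A83-01 replicate 1 the share of the 826 genes was 71.8%. All 4 *Smad2/3* cKO + A83-01 samples carry numbers below 390, so the series of numbers is not balanced between them and either compared group.

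**Figure D2:**
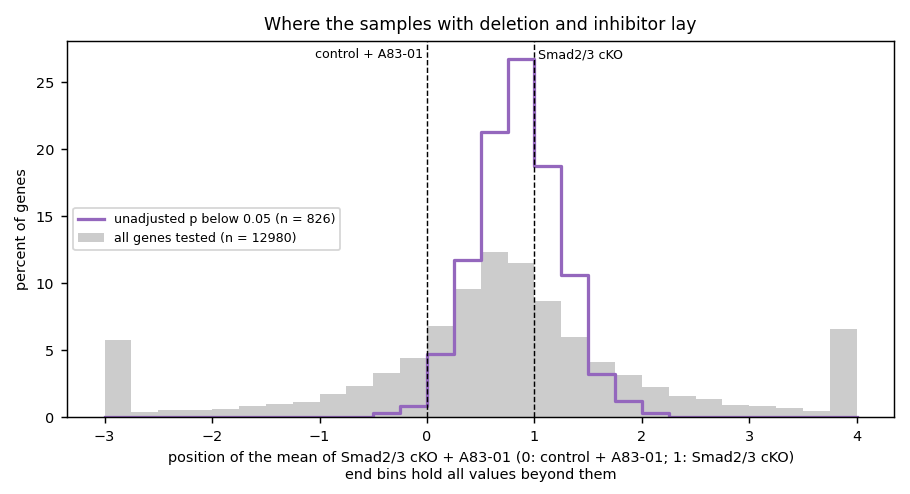
Position of the mean log2 level of *Smad2/3* cKO + A83-01 on a line that runs from control + A83-01 (0) to *Smad2/3* cKO (1), as the percent of genes in each bin for the 826 genes at an unadjusted p below 0.05 (line) and all 12980 genes tested (grey bars). The line is highest just below 1, and 680 of the 826 genes lie nearer to 1 than to 0.

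The control + vehicle samples lay nearer to control + A83-01 for 637 of the 826 genes (77.1%), compared with 58.9% of all genes. Control + A83-01 lay between control + vehicle and *Smad2/3* cKO for 452 of the 826, and for 6197 of all 12980 genes. This was the order seen for *Ncald* and *Gstm7*. Control + vehicle lay between the 2 compared groups for 297 of the 826 and past *Smad2/3* cKO for 77. Over all 12980 genes these numbers were 2660 and 4123. Replicates 1 to 3 of control + vehicle and of control + A83-01 carry the same label numbers.

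The 2 other comparisons of equal size share samples with this one and are set beside it. *Smad2/3* cKO + A83-01 against control + A83-01, in which both groups had the inhibitor and the genotype differed, as did the series of label numbers, gave 3 higher genes and 0 lower of 12915 tested (0.0232%), at the same thresholds. They were *Otop1* (log2 difference 3.06, adjusted p = 0.00285), *Ncald* (2.00, adjusted p = 0.00285) and *Nlrp6* (2.95, adjusted p = 0.00916). The corresponding log2 differences with deletion alone against inhibitor alone were 2.71, 1.38 and 2.55. *Smad2/3* cKO + A83-01 against *Smad2/3* cKO gave 0 calls of 12998 (0%) in limma, with 554 genes at an unadjusted p below 0.05, and in it *Otop1* differed by 0.35, *Ncald* by 0.61 and *Nlrp6* by 0.39. The levels in *Smad2/3* cKO + A83-01 were 380 to 671 for *Otop1*, 1750 to 2631 for *Ncald* and 1415 to 1700 for *Nlrp6*.

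BMP and SMAD1/5 targets leaned toward the deletion. Of the 20 genes listed, 15 were tested and none was called, a background of 0%. At an unadjusted p below 0.05, 5 were higher in *Smad2/3* cKO (*Id2*, *Id4*, *Hey1*, *Bambi* and *Bmper*) and 0 lower, beside 3.47% and 2.89% of all genes. The same shares are the background for the list counts that follow. The estimated difference was above 0 for 14 of the 15, compared with 51.5% of all genes. This number was 11 to 14 when 1 sample was left out, and 11 with quantile normalization. The median log2 difference was 0.55, compared with 0.01 over all genes. The median stayed between 0.40 and 0.77 when 1 sample was left out, and was 0.89 in the lower and 0.56 in the higher series of label numbers. Without *Smad2/3* cKO replicate 2, the sample with macrophage transcripts, it was 0.53 with 3 members higher at an unadjusted p below 0.05.

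The *Id* genes encode proteins that bind basic helix-loop-helix transcription factors and keep them from DNA. *Id4* was at 258, 239, 134 and 128 in control + A83-01 and at 858, 618, 395.6 and 305 in *Smad2/3* cKO, without overlap, and at 4.55 to 18.2 in control + vehicle. The difference was 2.78-fold (1.58 to 4.89, adjusted p = 0.591). *Id2* was at 466, 544, 508 and 501 in control + A83-01 and at 628, 642, 699 and 796 in *Smad2/3* cKO, also without overlap but with a difference of only 1.36-fold (1.08 to 1.72, adjusted p = 0.722). Control + vehicle was at 650 to 881 for *Id2*, in the range of the deletion and above the inhibitor. *Id1* was at 809, 398, 591 and 883 in control + A83-01 and at 952, 1114, 1482 and 603 in *Smad2/3* cKO, and the groups overlapped (log2 difference 0.62, −0.08 to 1.33, adjusted p = 0.722). *Id3* overlapped as well, with a log2 difference of 0.55 (−0.32 to 1.42).

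Among the other targets, *Bambi*, a decoy receptor that dampens TGFβ family signals, was at 42.0 to 67.2 in control + A83-01 and 63.6 to 145 in *Smad2/3* cKO (log2 difference 0.85, 0.05 to 1.65, adjusted p = 0.722). *Bmper*, a secreted BMP-binding protein, was at 35.4 to 108 and 74.5 to 241 (1.01, 0.01 to 2.00, adjusted p = 0.722). The inhibitory SMADs, which BMP and TGFβ signals induce as feedback, had wide intervals: *Smad6* was at 17.6 to 52.3 in control + A83-01 and 27.5 to 74.3 in *Smad2/3* cKO (0.89, −0.24 to 2.02), and *Smad7* at 10.4 to 20.2 and 13.8 to 90.4 (1.12, −0.32 to 2.55). In the fit of all 8 samples, the 1 member with an estimate below 0 was *Dlx5*, a homeobox gene (log2 difference −0.67).

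Upstream sequences of *Id2*, *Id3* and *Id4* are shown because SMAD1/5 act on the *Id* genes, and those of *Otop1* and *Nlrp6* because these genes passed the threshold between *Smad2/3* cKO + A83-01 and control + A83-01. Each is the 250 bases before the RefSeq start in GRCm38.p6, read in the direction of transcription (*Id1*, *Hey1* and *Ncald* were not matched). Capitals mark the SMAD-binding letters CAGAC or their reverse complement GTCTG, and the GC-rich letters GGCGCC, which read the same on both strands. Of 32851 RefSeq windows of this length, 42.2% held the first and 9.59% the second.
*Id2*, chr12:25096093-25096342, minus strand: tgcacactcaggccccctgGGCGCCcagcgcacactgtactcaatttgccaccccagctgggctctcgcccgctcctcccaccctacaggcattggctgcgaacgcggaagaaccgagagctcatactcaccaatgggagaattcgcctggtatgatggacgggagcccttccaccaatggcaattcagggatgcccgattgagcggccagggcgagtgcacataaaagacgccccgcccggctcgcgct
*Id3*, chr4:136143572-136143821, plus strand: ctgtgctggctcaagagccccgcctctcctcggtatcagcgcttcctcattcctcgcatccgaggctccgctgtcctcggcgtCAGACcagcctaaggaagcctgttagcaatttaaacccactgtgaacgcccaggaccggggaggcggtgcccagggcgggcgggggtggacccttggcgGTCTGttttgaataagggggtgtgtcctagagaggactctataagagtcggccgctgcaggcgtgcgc
*Id4*, chr13:48260866-48261115, plus strand: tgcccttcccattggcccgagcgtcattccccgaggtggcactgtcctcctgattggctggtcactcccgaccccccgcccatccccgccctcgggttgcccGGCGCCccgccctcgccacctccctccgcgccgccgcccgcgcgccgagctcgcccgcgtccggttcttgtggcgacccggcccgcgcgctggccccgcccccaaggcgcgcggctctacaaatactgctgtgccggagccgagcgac
*Otop1*, chr5:38277154-38277403, plus strand: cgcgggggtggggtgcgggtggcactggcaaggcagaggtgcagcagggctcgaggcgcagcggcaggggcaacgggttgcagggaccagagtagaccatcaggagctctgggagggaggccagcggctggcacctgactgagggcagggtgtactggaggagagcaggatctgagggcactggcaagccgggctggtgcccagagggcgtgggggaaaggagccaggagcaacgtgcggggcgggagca
*Nlrp6*, chr7:140920652-140920901, plus strand: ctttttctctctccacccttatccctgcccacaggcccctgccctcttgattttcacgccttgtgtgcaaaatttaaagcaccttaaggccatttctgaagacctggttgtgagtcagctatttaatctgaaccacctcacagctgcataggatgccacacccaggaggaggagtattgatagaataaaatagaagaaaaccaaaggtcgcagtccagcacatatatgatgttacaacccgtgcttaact

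*Id2* and *Id4* each held 1 copy of GGCGCC and none of the other letters, and *Id3* held 2 of the CAGAC or GTCTG letters and no GGCGCC. *Otop1* and *Nlrp6* held neither. These matches describe the letters of the windows only.

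Genes that an earlier analysis of these samples gave as most changed from control + vehicle were next compared for how closely deletion and inhibitor brought them to the same level. The list was chosen on these data and is not independent evidence. Of 25 genes, 20 were tested and none was called. The median log2 difference was 0.58, and 4 were at an unadjusted p below 0.05 (*Nptx1*, *Prss29*, *Id4* and *Clic6*). *Clic6*, *Fst* and *Fzd10* had a mean under 10 in 1 group, so they passed the filter only through the other and had to differ. Over the other 17 genes the median was 0.55, with 3 higher. Over the list as tested 1 was higher without *Smad2/3* cKO replicate 3 and 2 without *Smad2/3* cKO replicate 2, and the interval lay within 2-fold for only 2, compared with 61.7% of all genes. *Cuzd1*, a zymogen granule membrane protein of uterine and pancreatic epithelium, was at 13.2 to 32.6 in control + vehicle and far higher in both compared groups, at 6392, 5231, 6655 and 10201 in control + A83-01 and at 11041, 2937, 2519 and 12811 in *Smad2/3* cKO. The groups overlapped, with a log2 difference of −0.28 (−1.43 to 0.87). *Nptx1*, a secreted pentraxin, was at 739, 1189, 4079 and 3694 in control + A83-01 and at 5142, 3250, 4736 and 5696 in *Smad2/3* cKO (1.27, 0.15 to 2.39, adjusted p = 0.722), and replicates 1 and 2 of the inhibitor were below all other samples of these groups. *Car4*, a carbonic anhydrase, and *Akr1b7*, an aldo-keto reductase, differed by 0.93 (−0.54 to 2.41) and −0.71 (−1.96 to 0.53).

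Some genes were near the limit of measurement in both groups. *Fn1*, which encodes fibronectin, was at 1884 to 5624 in control + vehicle, at 4.64 to 18.6 in control + A83-01 and at 0.633 to 19.3 in *Smad2/3* cKO, under the mean of 10 needed for the test. *Slc6a2*, the noradrenaline transporter, was at 0 in all 8 samples, and *Spink12*, *Tmprss11d*, *Kcng1* and *Fzd2* were also below the minimum. The 2 genes that follow passed it through *Smad2/3* cKO only. *Fst*, an antagonist of activin, was at 5.22, 17.5, 9.39 and 0 in control + A83-01 and at 14.5, 23.0, 48.6 and 11.0 in *Smad2/3* cKO, compared with 247 to 1183 in control + vehicle (log2 difference 1.88, −0.19 to 3.95). *Clic6*, a chloride channel-like protein, was at 8.80, 2.15, 0.929 and 0 in control + A83-01 and at 4.76, 25, 38.5 and 8.41 in *Smad2/3* cKO (2.47, 0.35 to 4.59, adjusted p = 0.722).

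**Figure D3:**
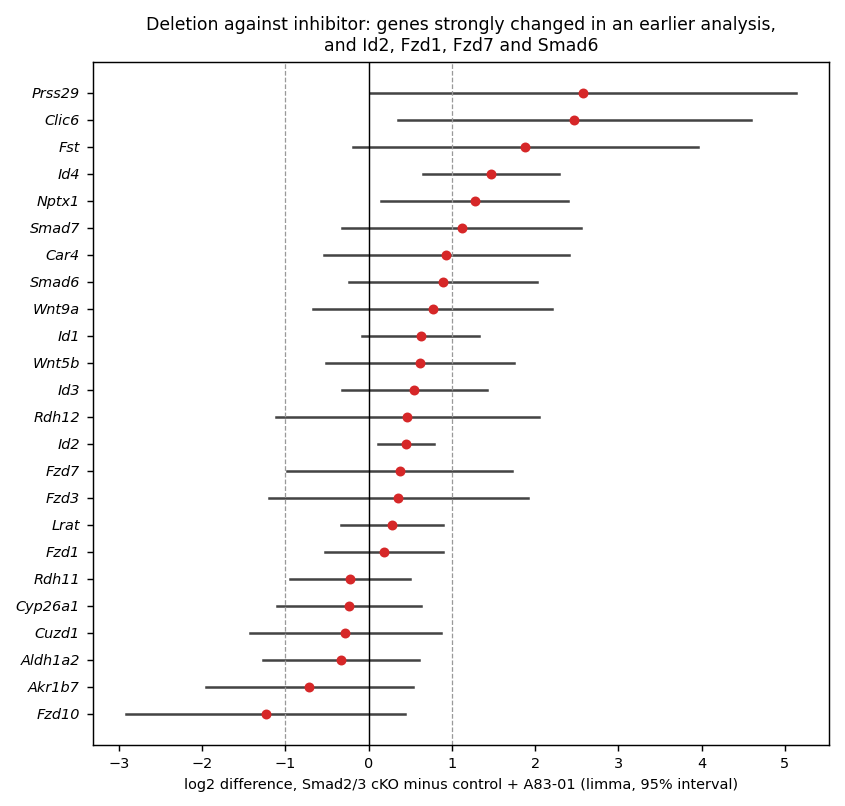
Log2 difference (*Smad2/3* cKO minus control + A83-01, limma) with its 95% interval for the 20 tested genes of the list from the earlier analysis and for *Id2*, *Fzd1*, *Fzd7* and *Smad6*; dashed lines mark 2-fold. The intervals of *Id4*, *Id2*, *Nptx1*, *Clic6* and *Prss29* lie above 0 and the others cross it, and those of *Prss29*, *Clic6* and *Fst* are the widest.

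Genes of retinoid metabolism showed no common direction. Of 28 genes tested, none was called, 1 was higher at an unadjusted p below 0.05 (*Adh1*) and 0 lower, and the median log2 difference was −0.01. Estimates ran from −0.89 to 2.39, and the interval lay within 2-fold for 16 (57.1%, compared with 61.7% of all genes). *Lrat*, which esterifies retinol for storage, was at 561 to 1202 in control + vehicle, at 4356, 6878, 9918 and 8415 in control + A83-01 and at 9426, 7034, 6788 and 12248 in *Smad2/3* cKO, with a log2 difference of 0.29 (−0.33 to 0.90) that holds the difference within 2-fold. *Aldh1a2*, which makes retinoic acid, and *Cyp26a1*, which breaks it down, differed by −0.33 (−1.27 to 0.60) and −0.24 (−1.10 to 0.63), neither of which holds the difference within 2-fold. *Rdh11* and *Rdh12*, retinal reductases, differed by −0.23 (−0.95 to 0.50) and 0.46 (−1.11 to 2.04).

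Of 25 tested genes that TGFβ or activin is known to induce through SMAD2/3, none was called, 1 was higher (*Tgfbi*, which passed the filter only through *Smad2/3* cKO) and 2 lower (*Cdkn1a* and *Tgif1*) at an unadjusted p below 0.05, and the median log2 difference was −0.06. *Tgfbi*, an extracellular matrix protein, was at 0, 6.52, 17.0 and 15.1 in control + A83-01 and at 66.5, 55.7, 29.4 and 20.6 in *Smad2/3* cKO, without overlap but against 0.944 to 8.69 in control + vehicle (2.54, 0.51 to 4.58, adjusted p = 0.722). *Cdkn1a*, the cell cycle inhibitor p21, was at 14401, 6265, 5615 and 9331 in control + A83-01 and at 4580, 5371, 6067 and 4075 in *Smad2/3* cKO (−0.74, −1.36 to −0.12, adjusted p = 0.722). *Tgif1*, a co-repressor that binds SMAD2/3, was at 1903 to 3549 and 1519 to 1953 (−0.53, −0.98 to −0.07, adjusted p = 0.722).

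Among 11 tested ligands of the TGFβ family, *Tgfb2* and *Tgfb3* were higher and *Gdf15* lower at an unadjusted p below 0.05, and none was called. *Tgfb2* was at 129 to 235 in control + vehicle, at 9135, 14802, 17364 and 13948 in control + A83-01 and at 26497, 21296, 12858 and 33790 in *Smad2/3* cKO. Both compared groups were thus far from control + vehicle, and *Smad2/3* cKO replicate 3 lay within the inhibitor group (log2 difference 0.73, 0.05 to 1.4, adjusted p = 0.722). *Tgfb3* had the same outlying replicate, at 2050 beside 3666 to 4357 in the other *Smad2/3* cKO samples and 1589 to 2805 in control + A83-01. Of 10 tested receptors none passed either threshold (median 0.31), and of 16 SMADs and SMAD regulators the interval lay within 2-fold for 12.

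WNT pathway genes showed no common direction, with 1 of 39 tested genes higher (*Fzd4*) and 1 lower (*Myc*) at an unadjusted p below 0.05 and a median log2 difference of 0.08. Of the 39, 3 passed the filter through 1 group only, and over the other 36 the median was 0.07. The WNT receptors and ligands of the earlier list were imprecise: *Fzd10* differed by −1.24 (−2.91 to 0.43), *Fzd3* by 0.36 (−1.20 to 1.91), *Fzd1* by 0.18 (−0.53 to 0.89), *Fzd7* by 0.37 (−0.98 to 1.72), *Wnt9a* by 0.77 (−0.67 to 2.20) and *Wnt5b* by 0.62 (−0.51 to 1.75). *Myc*, a growth-promoting transcription factor, was at 3094, 1948, 2053 and 2482 in control + A83-01 and at 1695, 1325, 1641 and 1314 in *Smad2/3* cKO, without overlap (−0.67, −1.06 to −0.27, adjusted p = 0.596). Of 12 Notch pathway genes, *Hey1* and the receptors *Notch1* and *Notch2* were higher at an unadjusted p below 0.05. The median log2 difference of this list was 0.18, with 7 of 12 estimates above 0. In it 1 member passed the filter through 1 group only, and over the other 11 the median was 0.08. Without *Smad2/3* cKO replicate 2, or without control + A83-01 replicate 4, 1 member was higher. *Notch1* was at 84.7 to 216 in control + A83-01 and 207 to 347 in *Smad2/3* cKO (0.79, 0.08 to 1.49, adjusted p = 0.722), while the ligand *Dll4* was at 494 to 799 and 107 to 599 (−0.96, −1.99 to 0.06).

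*Krt8*, *Krt18*, *Krt19* and *Krt20*, keratins of simple epithelium, were below all control + A83-01 samples in 3 of the 4 *Smad2/3* cKO samples and not in the remaining one. *Krt7*, another such keratin, was at 57634, 41703, 96520 and 56308 in *Smad2/3* cKO and at 50549 to 105912 in control + A83-01, with 1 sample below that range. Of 32 tested keratin and junction genes none was called, 5 were lower (*Krt8*, *Krt18*, *Krt19*, *Krt20* and *Cldn4*) and 1 higher (*Cldn10*) at an unadjusted p below 0.05, with a median log2 difference of −0.13. Over all genes, 2.89% were lower and 3.47% higher at that p. *Krt8* was at 37469, 19717, 29323 and 36210 in control + A83-01 and at 15797, 11942, 30243 and 13136 in *Smad2/3* cKO, so that replicate 3 lay inside the inhibitor group (−0.85, −1.54 to −0.15, adjusted p = 0.722). *Krt20* showed this most clearly, with 86.5, 154, 1626 and 255 in *Smad2/3* cKO against 930 to 1891 in control + A83-01 (−2.31, −3.98 to −0.64, adjusted p = 0.715). The same replicate lay inside the inhibitor range for *Msln*, a surface glycoprotein, at 12060 beside 2331 to 5652 in the other *Smad2/3* cKO samples and 9723 to 17016 in control + A83-01. Without *Smad2/3* cKO replicate 3 the lower members of the list numbered 8, and without *Smad2/3* cKO replicate 2 they numbered 2. *Cldn10*, a tight junction protein, was higher in *Smad2/3* cKO without overlap, at 12818 to 21290 beside 7237 to 10602 in control + A83-01 (0.81, 0.35 to 1.26, adjusted p = 0.596).

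Protease and inhibitor genes included 4 lower and 2 higher of 31 tested at an unadjusted p below 0.05, beside 2.89% and 3.47% of all genes. Without *Smad2/3* cKO replicate 3 these were 8 lower and 1 higher. *Timp2*, an inhibitor of metalloproteinases, was at 4369, 2152, 1888 and 1875 in control + A83-01 and at 1033, 588, 1831 and 557 in *Smad2/3* cKO, without overlap but with replicate 3 close to the inhibitor group (−1.44, −2.33 to −0.54, adjusted p = 0.596). *Mmp15*, a membrane-bound metalloproteinase, was at 66.3 to 279 in control + vehicle, at 537, 530, 1735 and 1566 in control + A83-01 and at 3885, 1865, 1153 and 2613 in *Smad2/3* cKO (1.20, 0.14 to 2.27, adjusted p = 0.722). Extracellular matrix and integrin genes gave 1 higher (*Lamb2*) and 1 lower (*Col18a1*) of 27. Among 26 gland and receptivity genes 0 were called, and at an unadjusted p below 0.05 *Sox9* (0.92), *Pax2* (0.77) and *Prss29* (2.57) were higher and *Areg*, an EGF family ligand, was lower (−1.94). Without *Smad2/3* cKO replicate 2 or without replicate 3, 0 of the list were higher. *Prss29*, a serine protease of the implanting uterus, was at 16.3, 123, 157 and 322 in control + A83-01 and at 188, 383, 6403 and 293 in *Smad2/3* cKO, and without replicate 3 its log2 difference was 1.44. *Areg* passed the filter only through control + A83-01.

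Interferon-stimulated genes had the widest shift of the lists with at least 10 tested genes, and it rested on 2 control + A83-01 samples. All 28 tested members had an estimated difference below 0, compared with 48.5% of all genes, with a median log2 difference of −0.78. At an unadjusted p below 0.05, 4 (*Oasl1*, *Oasl2*, *Ifi27* and *Tap1*) were lower, compared with 2.89% of all genes. The mean log2 level of the list was 9.74 and 9.64 in control + A83-01 replicates 1 and 2 but 7.78 and 7.75 in replicates 3 and 4, and it was 8.58, 7.92, 7.69 and 7.28 in *Smad2/3* cKO. Control + vehicle was at 8.25, 8.19 and 7.63, and 1 of the 4 *Smad2/3* cKO + A83-01 samples was at 9.91 beside 7.39 to 7.56 in the others. Within the label numbers below 390 the median of the list was −1.24 and 17 members were lower at an unadjusted p below 0.05, whereas within the higher series the median was −0.12 and 1 was lower. The number of lower members ran from 1 without control + A83-01 replicate 1 or without replicate 2 to 14 without control + A83-01 replicate 3. *Oasl1*, an antiviral protein of the 2′-5′ oligoadenylate synthetase family, was lower with deletion in both series of numbers (log2 differences −2.23 and −1.03), at 1524, 1153, 723 and 1009 in control + A83-01 and at 352, 226, 750 and 233 in *Smad2/3* cKO (−1.63, −2.48 to −0.78, adjusted p = 0.498). *Ifi44l* and *Gbp2b*, interferon-induced genes outside the list that were chosen after their values were seen, lay the other way, with means of 7.57 and 39.2 in control + A83-01 and of 50.8 and 145 in *Smad2/3* cKO. Their log2 differences were 3.53 (1.13 to 5.93) and 4.38 (1.28 to 7.48), with adjusted p of 0.668 and 0.712, the groups overlapped for both, and *Ifi44l* passed the filter only through *Smad2/3* cKO. *Oasl2* was at 1158, 975, 97.9 and 46.8 in control + A83-01 and at 55.6, 45.0, 97.0 and 19.2 in *Smad2/3* cKO.

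**Figure D4:**
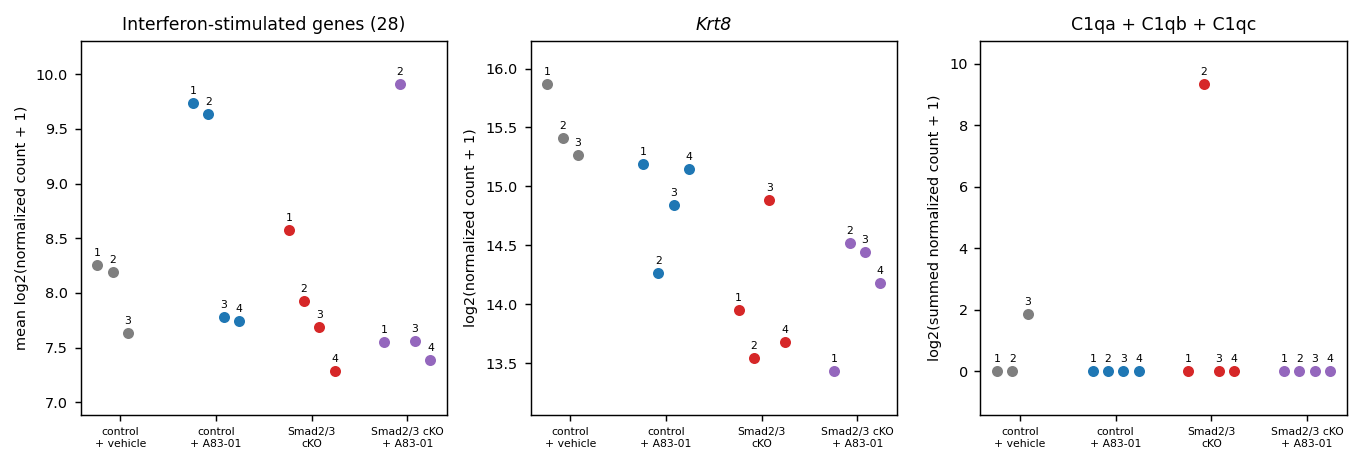
Each sample by replicate number in the 4 groups: mean log2(normalized count + 1) of 28 interferon-stimulated genes (left), *Krt8* (middle) and the summed count of *C1qa*, *C1qb* and *C1qc* (right). Control + A83-01 replicates 1 and 2 and 1 *Smad2/3* cKO + A83-01 sample are high on the left, *Smad2/3* cKO replicate 3 lies inside the control + A83-01 range in the middle, and *Smad2/3* cKO replicate 2 alone is high on the right.

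*Cep85* and *Rps3a1* were high in 4 control samples, 2 with vehicle and 2 with A83-01. *Cep85*, which encodes a centrosomal protein, was at 10265 and 15753 in control + A83-01 replicates 1 and 2 and at 9189 and 17889 in control + vehicle replicates 1 and 2, which carry the same numbers, and at 340 to 590 in the other 11 samples. *Rps3a1*, a ribosomal protein gene with many near-identical pseudogene copies between which counting may split reads, was at 6886 to 10598 in those 4 samples and at 701 to 1104 in the other 11. *Smad2/3* cKO replicate 1 also carries the number of replicate 1 of both control groups and was at 340 for *Cep85* and 898 for *Rps3a1*. Both genes counted among the 212 without overlap on the lower side, although the difference rested on these replicates: the log2 difference of *Cep85* was −5.21 in the lower series of numbers and −0.36 in the higher.

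Genes of growth and housekeeping had the highest shares of narrow intervals. Of 45 genes of S phase and mitosis, 0 were called in limma, 0 were at an unadjusted p below 0.05, the median log2 difference was −0.07 and the interval lay within 2-fold for 42 (93.3%, compared with 61.7% of all genes). *Mki67*, a marker of cycling cells, was at 588 to 1589 in control + A83-01 and 1181 to 1918 in *Smad2/3* cKO (0.46, −0.19 to 1.10). The interval lay within 2-fold for 18 of 22 genes of cholesterol synthesis and uptake and for 18 of 19 of the unfolded protein response, with median log2 differences of −0.07 and −0.02. Of the remaining lists, none of which held a call, immediate early genes gave 1 lower of 23 (*Dusp5*), EGF family genes 1 of 11 (*Areg*), steroid receptor and estrogen-responsive genes 1 of 17 (*Areg* again), targets of AhR and NRF2 1 of 20 (*Gstm1*), and chemokines and cytokines 2 of 24 (*Il1rn* and *Il33*), all at an unadjusted p below 0.05, and 0 higher. Chemokines and cytokines differed between the series of label numbers. Below 390, 0 were higher and 4 lower, with a median log2 difference of −0.37. In the higher series 5 were higher and 0 lower, with a median of 0.29. Only 5 mesenchymal markers were tested, with a median log2 difference of −1.03 and 0 at an unadjusted p below 0.05. Of these, 1 passed the filter through 1 group only, and over the other 4 the median was −0.86. The median of the list as tested ran from −1.22 to −0.35 when 1 sample was left out. Since whole cultures were measured, fewer cells of a kind and less RNA per cell cannot be told apart for any of these genes.

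**Figure D5:**
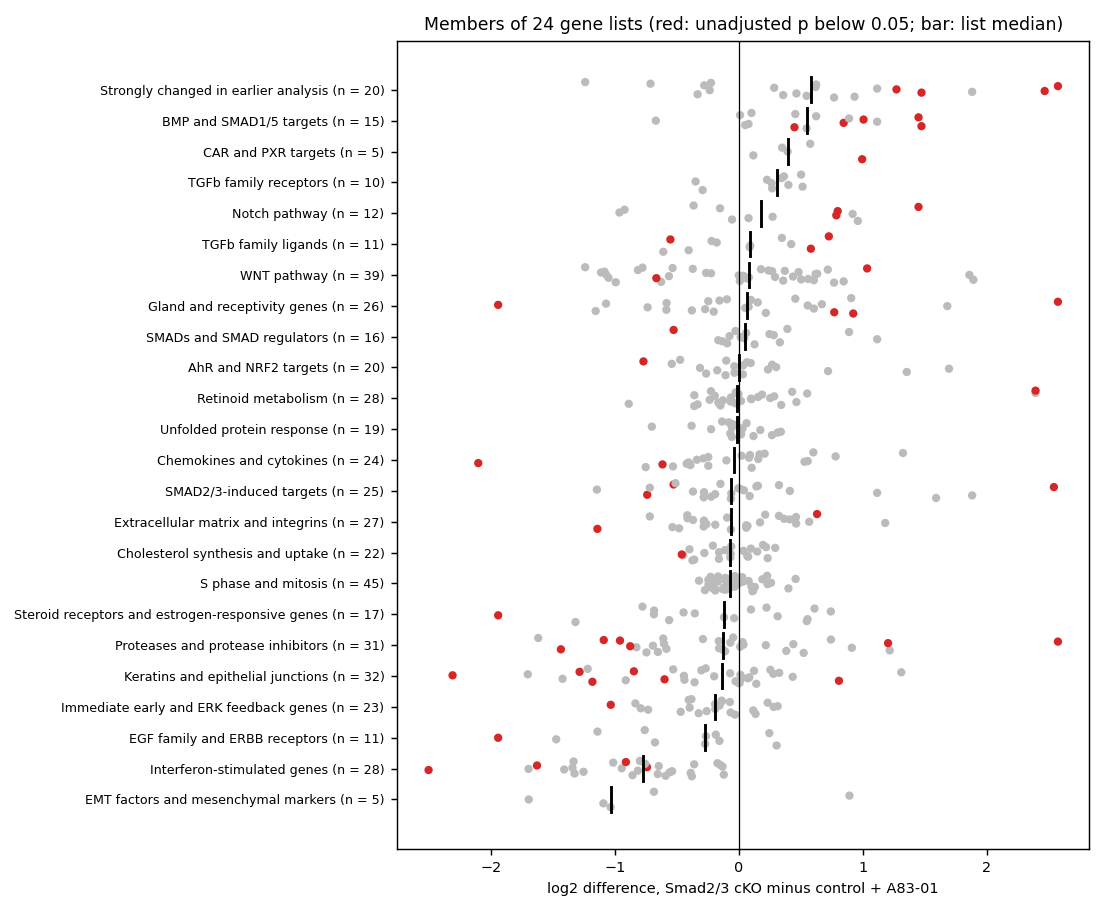
Log2 difference (*Smad2/3* cKO minus control + A83-01) of every tested member of 24 gene lists, with the list median as a bar and members at an unadjusted p below 0.05 in red. BMP and SMAD1/5 targets lie to the right of 0 except *Dlx5*, interferon-stimulated genes lie to the left, and genes of S phase and mitosis lie close to 0.

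The Cre was inserted at *Ltf* and was carried by the *Smad2/3* cKO group only, so genes near it were counted separately. Within 10 Mb of *Ltf* 171 genes were tested, none was called, and 8 were higher and 6 lower at an unadjusted p below 0.05 (8.19%, compared with 6.36% of all genes).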

How the data were processed

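RNA-seq of mouse endometrial organoids was analysed in 8 of 15 samples, 4 per group. What was deposited is 1 normalized count for each gene and sample, named here as signal: the authors estimated counts with Salmon 1.4.0 on GRCm39 and used DESeq2 1.32.0 (versions per the submitters' processing notes), and the values are estimated counts scaled by 1 factor per sample. Whole reads could not be recovered from these values, so no count test was run, and the depth in reads is not known from them.

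limma 3.58.1 (lmFit, eBayes with trend) in R 4.3.3 was fitted to log2(normalized count + 1) for genes with a mean of at least 10, with the contrast *Smad2/3* cKO minus control + A83-01 and Benjamini-Hochberg adjustment over all genes tested. Fold changes are on this scale, which understates those of low genes, and p-values and adjusted p-values are from limma. The script was tested on simulated data. Of 16729 identifiers, 16697 were matched to a symbol. Samples of a group came from different mice.

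The members and lists were chosen with earlier results of these data known. The genes to be named were *Smad2*, *Smad3*, *Ltf*, the 10 largest changes past the thresholds in each direction, list members past an adjusted p of 0.05, the list of strongly changed genes, and the members of each list with the largest difference. Since none passed, genes of lowest p, genes without overlap and list members at an unadjusted p below 0.05 were named after their values were seen. Alternatives covered the pseudocount, the filter, normalization, variance model, block, series and each sample left out. Promoter sequences are from RefSeq (GRCm38.p6), and genes near *Ltf* were counted by their positions in an annotation of GRCm38.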

Additional observations from a re-analysis of the deposited data

Results flagged for a closer look

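In 15 of 250 groups of 4 samples checked (6%), 1 sample stood far from the other 3, and chance alone flags about 1 in 20 such groups. In control + A83-01 these were *Hey1* at 91.6 in replicate 2, *Timp2* at 4369 and *Gstm1* at 3886 in replicate 1, *Spink12* at 11.3 and *Slc36a4* at 10.2 in replicate 2, *Serpina1e* at 22.7 in replicate 3, and *Fzd10* at 8.25 and *Hsd17b7* at 865 in replicate 4. In *Smad2/3* cKO they were *Ifi27* at 1124, *Slc13a2* at 2407, *Apobec1* at 33.6 and *Fzd10* at 0.952 in replicate 1, *Stxbp6* at 87.8 and *Krt12* at 7.76 in replicate 2, and *Tenm4* at 38.3 in replicate 3.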

How the results depend on the processing

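The count of calls at an adjusted p below 0.01 was 0 in each direction in every fit of 8, 7 or 15 samples, and 0 among the label numbers of 390 and above. Among those below 390 (2 against 2) limma called 4 higher and 7 lower, among them *Wfdc18*, *Oasl2*, *Cep85* and *Rps3a1*, while the intervals within 2-fold numbered 3691. At an adjusted p below 0.05, 2 genes passed with the replicate block (*Nlrp6*, *Col16a1*), 2 with all 4 groups in the fit (*Ncald*, *Otop1*) and 1 without *Smad2/3* cKO replicate 3. The replicate block gave 644 higher and 492 lower genes at an unadjusted p below 0.05. Samples of the same replicate number deviated together with r of 0.104, 0.238, −0.0823 and 0.158 for replicates 1 to 4. Of these, 2 of 4 correlated best with their own replicate number, so replicate numbers were not taken to pair the samples. Only replicate 1 also shared a label number between the groups. There, control + A83-01 replicate 1 correlated best with *Smad2/3* cKO replicate 3 (r of 0.142). Pairing by label number could not be examined further. Leaving out 1 sample gave 270 to 878 higher and 208 to 665 lower genes at an unadjusted p below 0.05, with 7137 to 8522 intervals within 2-fold, and the higher series gave 219 lower. The counts were lowest without control + A83-01 replicate 1 (208 lower) and *Smad2/3* cKO replicates 2 (270 higher, 237 lower) and 4 (218 lower). Of 126 named genes tested, 20 changed sign in at least 1 alternative. In the higher series these were *Ltf* (0.52), *Fzd1* (−0.00076), *Fzd7* (−0.51), *Car4* (−0.22), *Lrat* (−0.0028), *Rdh12* (−0.098), *Wnt5b* (−0.029), *Adh7* (−0.32), *Col7a1* (−1.40), *Snai3* (0.038), *Ugt1a1* (−0.93) and *Serpina1e* (1.70). In the lower series they were *Akr1b7* (0.13), *Rdh11* (0.20), *Wnt9a* (−0.49) and *Fzd3* (−0.83), and with sample weights *Serpina1e* (0.48). With 1 sample left out, the range included 0 for *Smad3* (−0.029 to 0.50), *Fzd1* (−0.087 to 0.32), *Cuzd1* (−0.67 to 0.11), *Cyp26a1* (−0.46 to 0.11), *Aldh1a2* (−0.67 to 0.088), *Rdh12* (−0.066 to 0.90), *Fzd3* (−0.38 to 0.75), *Ugt1a1* (−0.13 to 1.05) and *Serpina1e* (−3.97 to 0.24). The cause of these changes was not tested.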

Other observations

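*Abcb1b*, which encodes a drug efflux pump induced by xenobiotic receptors, was at 3044 to 4254 in control + vehicle, at 18947, 29515, 52869 and 51344 in control + A83-01 and at 42872, 72794, 69850 and 109823 in *Smad2/3* cKO. The log2 difference between the compared groups was 0.99 (0.15 to 1.84, adjusted p = 0.722 in limma). All 5 tested targets of the xenobiotic receptors CAR and PXR had an estimate above 0, compared with 51.5% of all genes. This count was 3 of 5 within the label numbers below 390 and 4 of 6 tested within the higher series. *Il1rn*, the interleukin 1 receptor antagonist, was at 2520, 1529, 263 and 170 in control + A83-01 and at 109, 187, 166 and 147 in *Smad2/3* cKO, and in control + vehicle it was at 3067, 2203 and 206, so that replicates 1 and 2, which carry the same label numbers in both control groups, were high in both. *Serpina1e*, one of a family of near-identical genes between which reads may be split, was at 17507, 12755, 22.7 and 18348 in control + A83-01 and at 11168, 20.4, 15395 and 295 in *Smad2/3* cKO. *Cyp1a1*, a target of the aryl hydrocarbon receptor, was at 501, 238, 33.7 and 49.95 in control + A83-01 and at 2024, 770, 414 and 35.0 in *Smad2/3* cKO (log2 difference 1.70, −0.99 to 4.38).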
